A study of Mus musculus with 8 samples.

Results

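The 10 genes described here handle phosphate, calcium and vitamin D in the kidney, and they were followed in the renal cortex of aged and young mice. They were taken by name from the gene table, in which 10 of 10 were found among 22609 genes: *Kl* for Klotho, *Cyp27b1*, *Cyp24a1* and *Vdr* for vitamin D, *Slc34a1*, *Slc34a3*, *Slc20a1* and *Slc20a2* for phosphate, and *Trpv5* and *Calb1* for calcium. The rule that lists them is by function and uses no measured value. Cortex was taken from 4 male C57BL6 mice of 30 months and from 4 of about 5 months, none of them treated, and each mouse gave 1 RNA-Seq library. The methods of the study give the aged group a slightly higher mean age than the labels do. No transgene or deletion was involved, so the groups differ in age by the labels.

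Klotho is a membrane protein of the renal tubule that acts as co-receptor for FGF23, a phosphate-lowering hormone made in bone. FGF23 signaling lowers the phosphate transporters of the proximal tubule, lowers *Cyp27b1*, whose product makes active vitamin D, and raises *Cyp24a1*, whose product degrades it. Active vitamin D acts through its receptor, encoded by *Vdr*, and is known to raise *Cyp24a1* and the distal calcium genes *Trpv5* and *Calb1*. The 4 transporters carry phosphate with sodium. In the cortex, *Slc34a1* is used by the proximal tubule, whereas *Trpv5* and *Calb1* belong to the late distal convoluted and connecting tubule.

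Promoter sequences are given for *Cyp27b1*, which alone among the 10 genes passed the test below, and for *Kl*. RefSeq (GRCm38.p6) listed a promoter for 7 of the 10 genes, with 8 windows. From each window the 250 bases before the start were taken, and both sequences below were found once, unchanged, in mm9, the build of the counts. They were read 5′ to 3′ on the plus strand, at chr10:126485052-126485301 for *Cyp27b1* and at chr5:151754932-151755181 for *Kl*. Capitals mark TATATA in *Cyp27b1*, and in *Kl* the letters GGGCGG with, on the other strand, the same motif read as CCGCCC.
Cyp27b1: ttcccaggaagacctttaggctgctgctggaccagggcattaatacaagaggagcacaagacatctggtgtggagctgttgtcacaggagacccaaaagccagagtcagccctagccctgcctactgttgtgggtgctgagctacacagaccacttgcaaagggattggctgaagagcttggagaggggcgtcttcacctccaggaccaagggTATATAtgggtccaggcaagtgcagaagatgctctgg
Kl: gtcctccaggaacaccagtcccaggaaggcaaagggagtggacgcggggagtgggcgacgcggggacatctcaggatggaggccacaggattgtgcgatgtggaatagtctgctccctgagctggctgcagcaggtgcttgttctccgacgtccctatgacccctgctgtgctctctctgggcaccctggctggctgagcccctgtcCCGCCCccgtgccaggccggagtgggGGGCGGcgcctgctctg
The 2 sequences differed in composition, with 54.4% GC in *Cyp27b1* and 66.8% in *Kl* against a median of 52.4% over all promoters. TATATA, which reads the same on both strands, began 37 bases before the *Cyp27b1* start. It was present in 5.25% of 32851 promoters searched on both strands. GGGCGG began 17 bases before the *Kl* start, and its copy on the other strand began 43 bases before it. It was present in 32.7% of promoters and in the windows of *Kl*, *Slc20a1* and *Vdr*. AGGTCA, a core motif of several nuclear receptors, was in 14.0% of promoters and in windows of *Slc20a1* and *Slc34a3*. TATAAA was in 12.4% of promoters and, among the genes described here, in the window of *Trpv5*, where it shared letters with a TATATA. The end of the *Trpv5* window that holds both motifs, which lies before the RefSeq start, falls inside the GENCODE model of the gene in mm9.

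All 10 genes passed the filter on low counts, with 91 read pairs in the lowest library of the lowest gene and 136445 at the highest. The libraries held 14820804 to 19018543 read pairs on genes in aged mice and 15152597 to 19821429 in young mice. Levels are read pairs per 1000000 read pairs on genes, scaled by edgeR's TMM method (CPM), with mean ± SD over 4 mice, and the values of a group are listed from mouse 1 to mouse 4. A gene was called when edgeR's quasi-likelihood test gave a Benjamini-Hochberg adjusted p below 0.05 over 13944 genes and a fold change above 1.5. One library stood apart. Aged mouse 1 lay at -71.5 on the first principal component, which held 48.1% of the variance, against -16.3 to 2.26 in the other aged mice and 21.6 to 26.2 in young mice. Of the 10 genes, 5 had their lowest level of all 8 mice in aged mouse 1 and 4 their highest. The log2 fold change of each of the 10 genes is therefore given with and without it. Values of other genes are over all 8 mice unless stated. Markers of the cortex (proximal tubule, thick limb, distal tubule, podocyte) were detected, and the summed markers of thick limb, intercalated cell, podocyte, endothelium, leukocyte and fibroblast overlapped between the ages. Single markers could differ within such a sum. *Csf1r*, a receptor of macrophages, was called lower, at 31.0 ± 8.38 CPM in aged and 62.0 ± 13.9 CPM in young mice (edgeR adjusted p = 0.0472), while the log2 fold changes of the other 5 leukocyte markers were above 0. *Col1a1*, a collagen gene of fibroblasts, measured 16.5 ± 7.11 CPM in aged and 37.7 ± 5.49 CPM in young mice, without overlap (edgeR adjusted p = 0.0729). Their part in the levels of the 10 genes was not tested. Cortex was sampled as bulk tissue, so fewer cells of a type and less RNA per cell cannot be told apart.

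*Cyp27b1* rose with age, and it was the gene called among the 10, where 2.06% of all genes were called in either direction. It lies at chr10:126485306-126490062 on the plus strand of mm9, with 9 exons. Its level was 18.1, 11.8, 16.6 and 19.5 CPM in the aged group and 5.61, 9.63, 8.50 and 5.61 CPM in the young group. Each aged mouse lay above each young mouse, as was so for 18.9% of genes in one direction or the other. The means were 16.5 ± 3.35 CPM in aged and 7.34 ± 2.05 CPM in young mice, a log2 fold change of 1.17 (SE 0.23, 95% interval 0.66 to 1.68, edgeR adjusted p = 0.0390). Aged mouse 1 did not stand apart here, at 1.14 times the mean of the other aged mice, and without it the log2 fold change was 1.12 (adjusted p = 0.0354). The call was lost when any of 5 mice was left out. The edgeR adjusted p was 0.0709 without aged mouse 3, and it was 0.116, 0.0710, 0.0948 and 0.125 without young mice 1, 2, 3 and 4. The log2 fold change stayed between 1.06 and 1.33 in those fits. The gene had the lowest counts of the 10, between 91 and 369 read pairs per library.

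**Figure D1:**
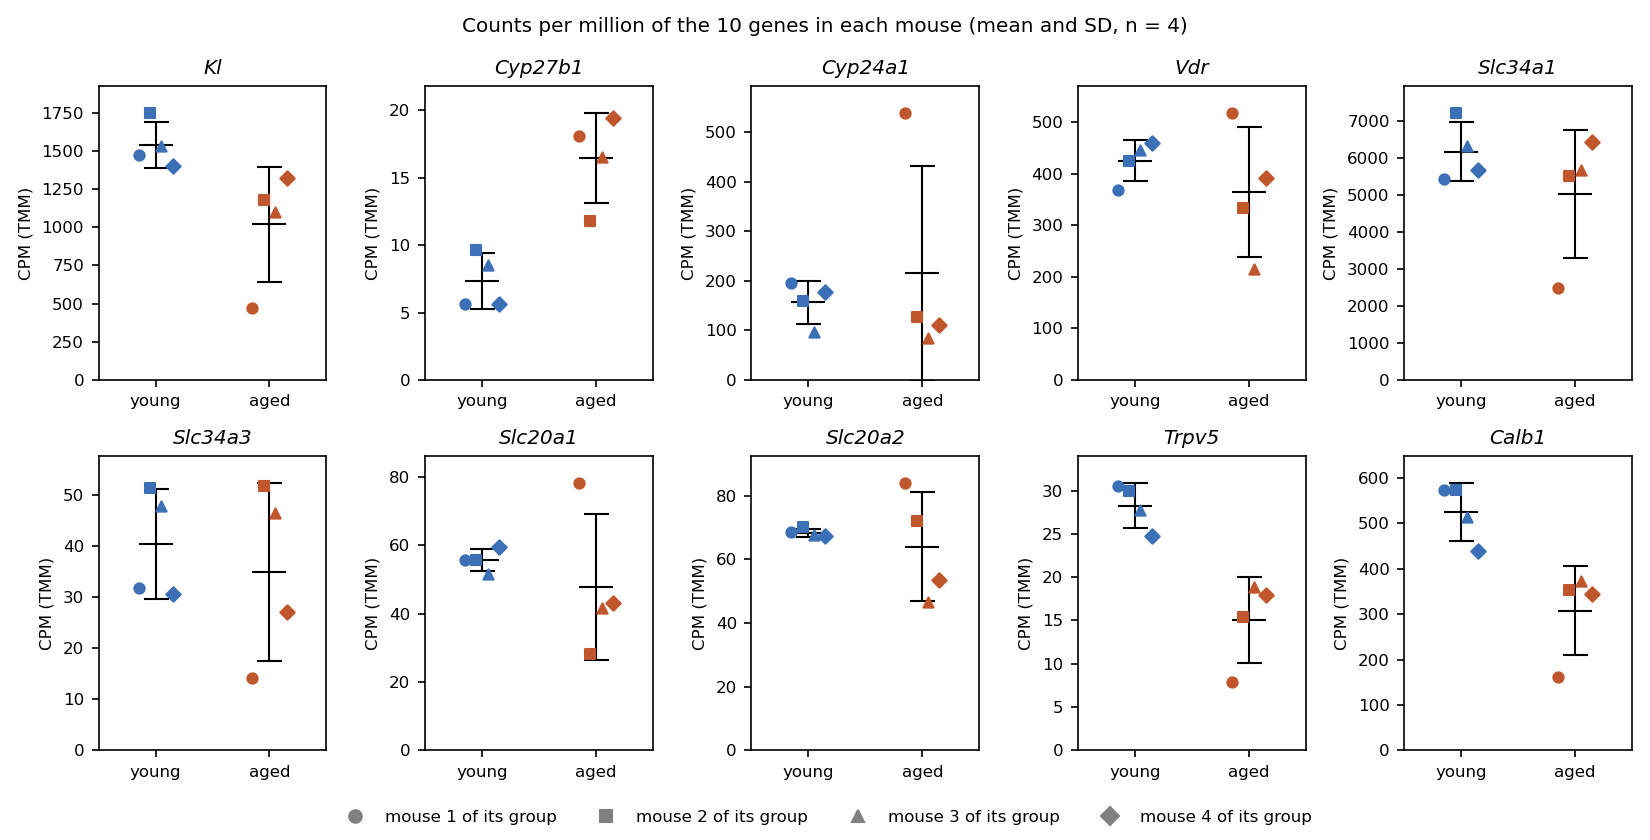
Level of each of the 10 genes (y axis, CPM after TMM scaling, each axis starting at 0) in young (blue) and aged (orange) mice, with symbols for mouse 1 to 4 of each group and lines for the mean and SD (n = 4). The groups do not overlap for *Kl*, *Cyp27b1*, *Trpv5* and *Calb1*, and the aged *Cyp24a1* bar is cut at 0 where its SD of 217 CPM exceeds its mean of 215 CPM.

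*Cyp24a1*, which encodes the enzyme that degrades active vitamin D, was set apart by 1 mouse. The gene lies at chr2:170308208-170322645 on the minus strand, with 12 exons. Its level was 539, 128, 84.1 and 109.9 CPM in the aged group and 195, 159, 95.8 and 178 CPM in the young group. Aged mouse 1 was 5.03 times the mean of the other aged mice and above all young mice, whereas aged mouse 3 was below all young mice. The edgeR log2 fold change was 0.46 (SE 0.56, 95% interval -0.81 to 1.73, adjusted p = 0.630). Without aged mouse 1 it was -0.55 (SE 0.23, adjusted p = 0.179), so its direction rested on that mouse. The group medians, 119 CPM in aged and 168 CPM in young mice, were in the order of the fit without it.

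*Vdr*, the receptor gene, lies at chr15:97684856-97741061 on the minus strand, with 10 exons. Its level was 518, 333, 214 and 391 CPM in the aged group and 369, 425, 447 and 459 CPM in the young group. The aged mice held both the highest and the lowest level, and the groups overlapped. The log2 fold change was -0.22 (SE 0.23, 95% interval -0.74 to 0.30, edgeR adjusted p = 0.560), and without aged mouse 1 it was -0.44 (adjusted p = 0.170).

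The balance of the enzymes that degrade and make active vitamin D was read within each library. *Cyp24a1* counts per *Cyp27b1* count were 29.8, 10.9, 5.08 and 5.65 in the aged group and 34.8, 16.5, 11.3 and 31.7 in the young group. The aged mice apart from mouse 1 lay below the young mice, and mouse 1 lay within their range. The log2 difference was -1.11, and the geometric means differed 2.16 times, but this did not pass a two-sided exact permutation test (p = 0.114, 0.152 adjusted over 4 ratios). Without aged mouse 1 the log2 difference was -1.65, at p = 0.0571 in the exact permutation test, the smallest that 3 against 4 mice allow.

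*Kl* had its lowest levels in aged mice but was not called. It lies at chr5:151755182-151796384 on the plus strand, with 5 exons. Its level was 474, 1178, 1101 and 1320.0 CPM in the aged group and 1474, 1750.3, 1535 and 1402 CPM in the young group. No aged mouse reached a young mouse, as was so, lower in aged, for 10% of all genes. The means were 1018 ± 374 CPM in aged and 1540.4 ± 150.2 CPM in young mice. edgeR gave a log2 fold change of -0.60 (SE 0.27, 95% interval -1.22 to 0.024, edgeR adjusted p = 0.210). A large part of the size lay in aged mouse 1, which held 2.53 times less than the mean of the other aged mice. Without it the log2 fold change was -0.36 with a smaller error (SE 0.11, adjusted p = 0.0794), from 1199 ± 111 CPM in the 3 other aged mice. *Kl* was not called in any of 16 alternative analyses, in which its log2 fold change ran from -0.75 to -0.36.

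The genes whose log2 CPM followed *Kl* most closely over the 8 mice, among 13353 genes, were *Glb1l* (Pearson r = 0.996), *Qprt* (r = 0.993) and *Ogdh* (r = 0.992). Those nearest to *Cyp27b1* were *Wdr35* (r = 0.974), *Slc25a27* (r = 0.971) and *Uimc1* (r = 0.969). These values are descriptions over mice that share the age difference and, for *Kl*, the low level of aged mouse 1.

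Of the phosphate transporters, *Slc34a1* made up nearly all of the RNA per length and none of the 4 passed the test. *Slc34a1* encodes the main sodium-phosphate cotransporter of the proximal tubule and lies at chr13:55501009-55516056 on the plus strand, with 13 exons. Its level was 2481, 5498, 5680.2 and 6427 CPM in the aged group and 5429, 7216, 6326 and 5682 CPM in the young group. Aged mouse 1 lay below all others, and the other aged mice lay within the young range. Its log2 fold change was -0.30 (SE 0.27, 95% interval -0.91 to 0.32, edgeR adjusted p = 0.513), and it was -0.07 (SE 0.13) without aged mouse 1.

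*Slc34a3*, the other type II cotransporter, lies at chr2:25084418-25089884 on the minus strand, with 13 exons. Its level was 14.2, 51.8, 46.6 and 27.1 CPM in the aged group and 31.9, 51.5, 47.8 and 30.6 CPM in the young group. The groups overlapped, with aged mouse 1 again the lowest. Its log2 fold change was -0.21 (SE 0.37, 95% interval -1.05 to 0.62, edgeR adjusted p = 0.737), and it was 0.05 without aged mouse 1. *Slc34a3* counts per 100 *Slc34a1* counts were 0.572, 0.942, 0.821 and 0.421 in the aged group and 0.587, 0.713, 0.756 and 0.539 in the young group. This ratio did not separate the ages (log2 difference 0.03, two-sided exact permutation test, p = 0.886 before and after adjustment over 4 ratios).

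The type III cotransporters *Slc20a1* and *Slc20a2* are expressed in many tissues. *Slc20a1* lies at chr2:129024500-129037352 and *Slc20a2* at chr8:23587172-23680079, both on the plus strand and with 11 exons. *Slc20a1* measured 78.1, 28.3, 41.5 and 43.0 CPM in the aged group and 55.5, 55.7, 51.5 and 59.4 CPM in the young group. Aged mouse 1 lay above all young mice and the other 3 aged mice lay below all of them. The log2 fold change was -0.22 (SE 0.26, 95% interval -0.80 to 0.37, edgeR adjusted p = 0.619), and without aged mouse 1 it was -0.56 (SE 0.14, adjusted p = 0.0508). In that smaller comparison 5 of the 10 genes had groups that did not overlap, against 23.9% of all genes. *Slc20a2* measured 83.9, 71.9, 46.8 and 53.4 CPM in the aged group and 68.5, 70.02, 67.5 and 67.3 CPM in the young group. The young mice were nearly alike, whereas the aged mice, with a coefficient of variation of 26.6%, lay on both sides of them. Its log2 fold change was -0.09 (SE 0.17, 95% interval -0.47 to 0.28, edgeR adjusted p = 0.746), and without aged mouse 1 it was -0.25 (SE 0.13, adjusted p = 0.255).

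Per kilobase of transcript, *Slc34a1* stood at 2000.4 ± 259 CPM per kb in young mice, the highest level of the 10 genes. It was followed by *Kl* at 301 ± 29.4, *Calb1* at 124 ± 15.1, *Vdr* at 97.2 ± 9.08 and *Cyp24a1* at 44.1 ± 12.2 CPM per kb. *Slc20a2*, *Slc34a3* and *Slc20a1* came next at 18.7, 18.5 and 16.7 CPM per kb, and *Trpv5* at 8.71 and *Cyp27b1* at 3.00 CPM per kb closed the order. The ranges of the young mice overlapped between *Calb1* and *Vdr* and between *Slc34a3* and its neighbors *Slc20a2* and *Slc20a1*, and for no other neighbors. *Slc34a1* made up 97.4% ± 0.118 of the summed level per kb of the 4 phosphate transporters in young mice and 96.7% ± 1.93 in aged mice. Its lowest share, 93.8%, was in aged mouse 1, where *Slc20a1* and *Slc20a2* made up 2.74% and 2.68%.

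Both calcium genes were lower in every aged mouse than in any young mouse, as was so for 10% of all genes. Neither was called by edgeR. *Trpv5* encodes the channel through which calcium enters distal tubule cells and lies at chr6:41602172-41630768 on the minus strand, with 15 exons. Its level was 7.96, 15.4, 18.9 and 18.0 CPM in the aged group and 30.5, 29.9, 27.7 and 24.7 CPM in the young group. The highest aged mouse stayed below the lowest young mouse. The means were 15.1 ± 4.97 CPM in aged and 28.2 ± 2.61 CPM in young mice, a log2 fold change of -0.91 (SE 0.24, 95% interval -1.44 to -0.38, edgeR adjusted p = 0.0686). Without aged mouse 1 the difference was smaller and its error lower, and *Trpv5* was then called, at -0.69 (SE 0.11, edgeR adjusted p = 0.0184), where 3.17% of all genes were called.

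*Calb1* encodes calbindin-D28k, which carries calcium through those cells, and lies at chr4:15808411-15835211 on the plus strand, with 11 exons. Its level was 161, 353, 372 and 344 CPM in the aged group and 573, 573, 513 and 439 CPM in the young group. The groups did not overlap, and aged mice 2 to 4 lay close together at 356 ± 14.5 CPM. The means over all mice were 307 ± 98.1 and 524 ± 63.5 CPM, a log2 fold change of -0.77 (SE 0.24, 95% interval -1.32 to -0.23, edgeR adjusted p = 0.0998). Without aged mouse 1 it was -0.56 (SE 0.11), with an edgeR adjusted p of 0.0274 but under the fold change limit. Other tools placed the 2 calcium genes past both limits. DESeq2 gave adjusted p = 0.00625 for *Trpv5* and 0.0209 for *Calb1*, and it called 6.26% of all genes. limma-voom with sample quality weights gave adjusted p = 0.0276 and 0.0478 in the same order, and it called 3.46% of all genes. *Cyp27b1* was called by both tools, at adjusted p = 1.38e-04 and 0.0243, so each called 3 of the 10 genes.

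**Figure D2:**
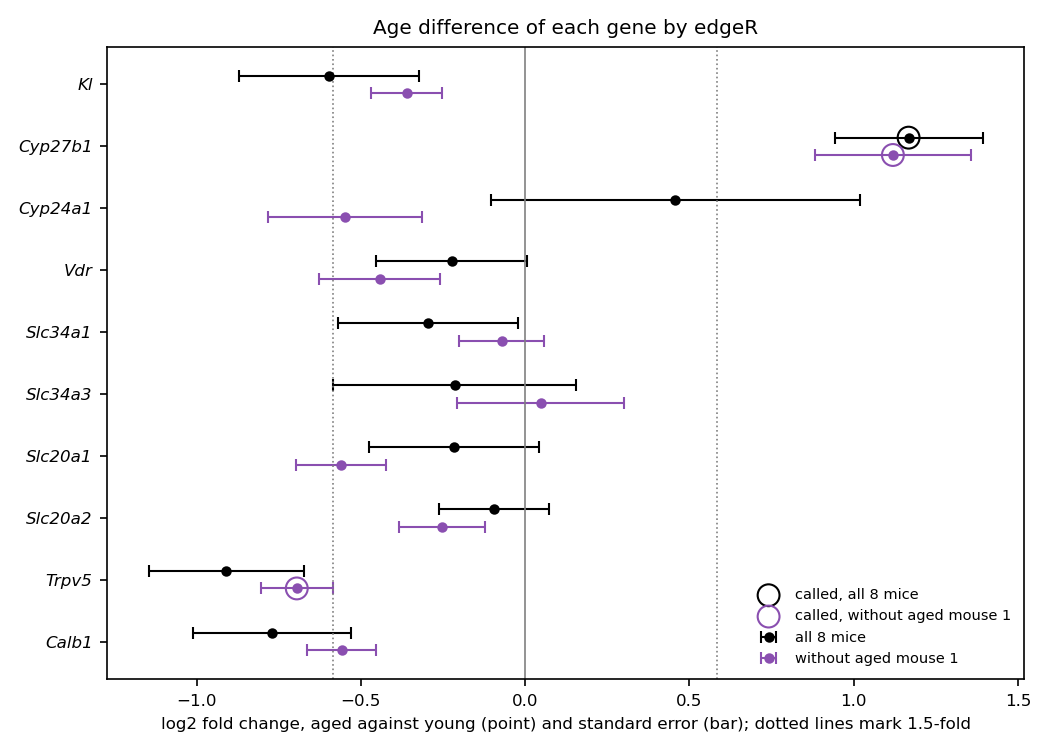
Age difference by edgeR, as log2 fold change, aged over young (x axis) for each gene (y axis), with standard errors, for all 8 mice (black) and without aged mouse 1 (purple), circles marking called genes and dotted lines 1.5-fold. *Cyp27b1* is called in both fits, *Trpv5* without aged mouse 1, and *Cyp24a1* moves from 0.46 to -0.55.

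*Trpv5* and *Calb1* were also read against *Slc12a3*, the sodium-chloride cotransporter that marks the distal convoluted tubule. *Slc12a3* itself measured 1251 ± 75.0 CPM in aged and 904 ± 213 CPM in young mice, without overlap (log2 fold change 0.47, SE 0.17, edgeR adjusted p = 0.133). *Trpv5* counts per 100 *Slc12a3* counts were 0.683, 1.26, 1.46 and 1.35 in the aged group and 3.32, 2.59, 3.07 and 3.89 in the young group. The groups did not overlap, and the geometric means differed 2.78 times (two-sided exact permutation test, p = 0.0286, 0.0571 adjusted over 4 ratios). *Calb1* counts per 100 *Slc12a3* counts were 13.9, 29.0, 28.7 and 25.9 in the aged group and 62.3, 49.5, 56.7 and 69.0 in the young group. These groups did not overlap either, and the geometric means differed 2.52 times (two-sided exact permutation test, p = 0.0286, 0.0571 adjusted over 4 ratios). The p of 0.0286 is the smallest that 4 against 4 mice allow. Both ratios stayed lower in aged mice without aged mouse 1, at log2 differences of -1.23 for *Trpv5* and -1.08 for *Calb1*. Each then gave p = 0.0571 in the exact permutation test, the smallest that 3 against 4 mice allow. The ratio takes in the higher *Slc12a3* of the aged mice as well as the lower calcium genes. Both calcium genes and *Slc12a3* already separated the ages by level, in opposite directions, so both ratios had to separate and reach the smallest p. The ratio tests therefore add no support beyond those levels.

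**Figure D3:**
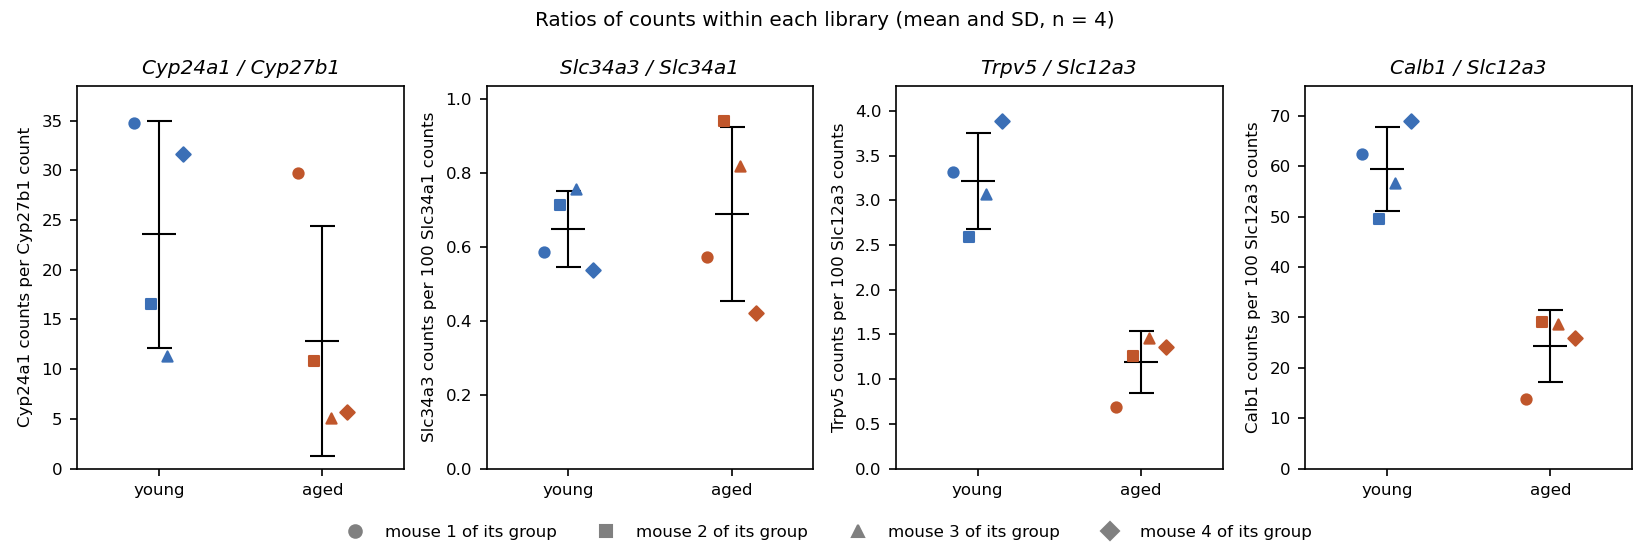
Ratios of counts within each library (y axis, per *Cyp27b1* count for *Cyp24a1*, otherwise per 100 counts of the second gene, each axis starting at 0) in young (blue) and aged (orange) mice, with mean and SD (n = 4). *Trpv5* and *Calb1* per *Slc12a3* separate the groups, at up to 1.46 against at least 2.59 and up to 29.0 against at least 49.5, whereas the other ratios overlap.

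Other markers of the distal segments are given beside the calcium genes. *Pvalb*, which encodes parvalbumin of the early distal convoluted tubule, measured 1.52, 10.2, 5.51 and 8.17 CPM in the aged group and 9.39 to 16.8 CPM in young mice (log2 fold change -1.03, SE 0.46, edgeR adjusted p = 0.202). The 3 distal convoluted tubule markers, *Slc12a3* among them, summed to 1223 to 1412 CPM in aged and 679 to 1220.3 CPM in young mice. That sum was carried by *Slc12a3*, at 1251 ± 75.0 CPM in aged and 904 ± 213 CPM in young mice. Of these markers 1, *Pvalb*, had a log2 fold change below 0 and 2 had one above 0. The ratios above used *Slc12a3* alone, and ratios to the other markers of the segment were not tested. The 6 markers of the connecting tubule and principal cell summed to 336 to 465 CPM in aged and 347 to 409 CPM in young mice, and none was called. The highest sum was that of aged mouse 1, in which *Aqp2*, a water channel, gave 271 CPM. Of the 6 markers 4 had a log2 fold change below 0, with a median of -0.17. No marker of either list was at 0 in every library. Their part in the levels of *Trpv5* and *Calb1* was not tested.

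Beside the phosphate transporters, the 5 markers of the first proximal tubule segments summed to 3749 CPM in aged mouse 1, 5312 to 5603 CPM in the other aged mice and 4743 to 5821 CPM in young mice. Among them *Slc5a2*, a glucose transporter, measured 125, 395, 389 and 216 CPM in the aged group and 304.6 ± 60.2 CPM in young mice, and *Slc5a12*, a lactate transporter, measured 807 ± 283 CPM in aged and 479 ± 92.0 CPM in young mice. Neither was called, at edgeR adjusted p = 0.847 and 0.128. The sum was carried by *Slc4a4*, at 2514 ± 208 CPM in aged and 2498 ± 188 CPM in young mice. *Slc22a6*, an organic anion transporter of the same list, measured 372, 768, 661 and 1186 CPM in the aged group and 1241 to 1484 CPM in the young group, without overlap (log2 fold change -0.90, SE 0.29, edgeR adjusted p = 0.107). The 3 markers of the last proximal segment summed to 502 to 2831 CPM in aged and 3192 to 4720.0 CPM in young mice, and none was called. Their log2 fold changes were -4.02 for *Slc22a7*, -1.91 for *Atp11a* and -0.97 for *Slc7a13* (edgeR adjusted p = 0.0615, 0.0732 and 0.195). The 4 injury markers, of which *Krt20* was too low to test, summed to 42.3 CPM in aged mouse 1, 21.9 to 23.9 CPM in the other aged mice and 12.4 to 22.2 CPM in young mice. Much of the excess in aged mouse 1 was *Lcn2*, at 16.4 CPM against 1.23 to 1.82 CPM in the other aged mice. *Vcam1* and *Krt20* were also highest of the aged mice there. *Havcr1* was lowest of them there, at 1.13 CPM against 2.15 to 3.00 CPM. *Vcam1* did not rest on that mouse, and each aged mouse lay above each young mouse. It measured 19.5 ± 1.86 CPM in aged and 12.9 ± 2.16 CPM in young mice (log2 fold change 0.59, SE 0.13, edgeR adjusted p = 0.0525). Groups did not overlap for 18.9% of all genes in one direction or the other. None of these lists held a marker at 0 in every library, and their part in the levels of the transporters and of *Kl* was not tested.

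Aged mouse 1 departed from the other aged mice in both directions. Its level was lower by 2.95 times for *Slc34a3*, 2.53 times for *Kl*, 2.37 times for *Slc34a1*, 2.21 times for *Calb1* and 2.19 times for *Trpv5* than their mean. It was higher by 5.03 times for *Cyp24a1*, 2.08 times for *Slc20a1*, 1.66 times for *Vdr* and 1.46 times for *Slc20a2*. The aged mice varied more than the young in 9 of the 10 genes by coefficient of variation, *Cyp27b1* being the other, and in 5 of 10 without aged mouse 1. Deviations from the group means showed how far this mouse set the relations among the genes. *Kl* and *Slc34a1* had r = 0.99 over 8 mice and 0.88 without it, and *Trpv5* and *Calb1* had 0.98 and 0.78. *Kl* and *Cyp24a1* had r = -0.88 over 8 mice and 0.01 without it, so that relation rested on 1 library. These correlations are descriptions of libraries that share scaling and depth.

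**Figure D4:**
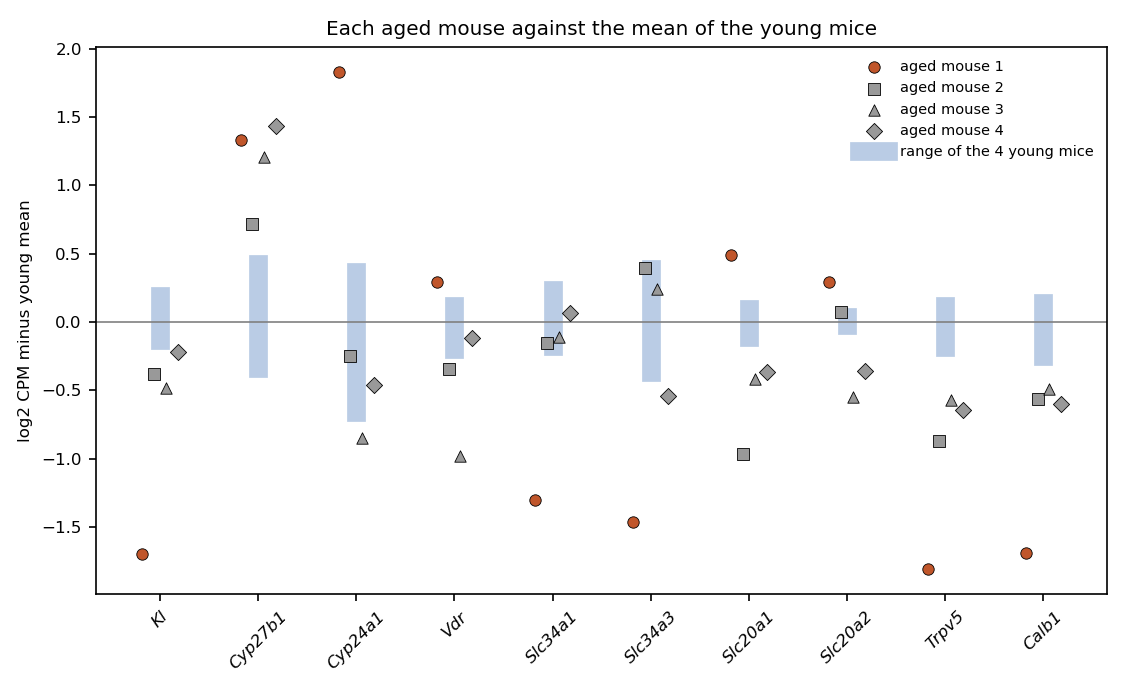
Log2 CPM of each aged mouse minus the mean of the young mice (y axis) for each gene (x axis), with aged mouse 1 in orange, the other aged mice in grey and the range of the 4 young mice as blue bars. Aged mouse 1 lies farthest from the young mean among the aged mice for 6 of the 10 genes, and for *Cyp27b1* all aged mice lie above the bar.

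As a group, 1 of the 10 genes was called, where 2.06% of all genes were. Without aged mouse 1, 2 of the 10 were called, where 3.17% of all genes were. Over all mice, groups did not overlap for 4 genes and 3 of these were lower in aged mice, where 18.9% and 10% of all genes did so. The median log2 fold change was -0.22 against 0.03 over all genes, and 8 of 10 were below 0 against 45.9% of all genes. An unadjusted edgeR p under 0.05 was reached by 3 of 10 genes and by 25.5% of all genes.

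Genes that act around these 10 were counted in 3 lists of 40 genes, of which 35 passed the filter, 1 was called and 11 had groups that did not overlap. Over all genes tested, 2.06% were called and 18.9% did not overlap. The list of phosphate hormone receptors and partners held 17 genes, and none of the 14 tested was called, with a median log2 fold change of -0.24. *Fgf23* had no count in any library, which allows up to 0.151 to 0.202 CPM by counting error, and *Klb* and *Phex* did not pass the filter either. *Klb* had 75, 10, 2 and 3 read pairs in the aged group and 1, 1, 0 and 1 in the young group. *Fam20c*, a secretory-pathway kinase that phosphorylates FGF23, measured 52.8 ± 3.76 CPM in aged and 71.5 ± 4.87 CPM in young mice, a log2 fold change of -0.44 (SE 0.08, edgeR adjusted p = 0.0372) under the fold change limit. *Stc2*, which encodes the secreted glycoprotein stanniocalcin, measured 3.63 ± 0.908 CPM in aged and 1.73 ± 0.355 CPM in young mice (log2 fold change 1.07, SE 0.24, edgeR adjusted p = 0.0525). Without aged mouse 1 it was called, at 1.09 (SE 0.26, edgeR adjusted p = 0.0470). It was then the 1 gene of this list called, where 3.17% of all genes were called.

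The list for vitamin D uptake, carriers and receptor partners held 11 genes, of which 10 were tested and 1, *Gc*, was called. The median log2 fold change was 0.02. *Gc* encodes the vitamin D-binding protein of plasma, made mainly in liver. Its level was 149.5, 62.6, 20.9 and 14.3 CPM in the aged group and 5.92, 5.82, 7.41 and 4.73 CPM in the young group. All aged mice lay above the young mice, with a wide spread among them (log2 fold change 3.38, SE 0.71, edgeR adjusted p = 0.0452). Without aged mouse 1 the log2 fold change was 2.45 (adjusted p = 0.0275). The call was lost without aged mouse 2 or 3, at adjusted p = 0.0703 and 0.0551, and without young mice 1 to 4, at 0.131, 0.113, 0.113 and 0.136.

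The list for calcium sensing and transport held 12 genes, and none of the 11 tested was called, with 8 below 0 and a median log2 fold change of -0.32. *Klk1*, the kallikrein of the distal nephron, measured 730.5 ± 217 CPM in aged and 1293 ± 93.8 CPM in young mice, without overlap (log2 fold change -0.82, SE 0.21, edgeR adjusted p = 0.0659). Without aged mouse 1 it was called, at -0.65 (SE 0.13, edgeR adjusted p = 0.0287). It was then the 1 gene of this list called, where 3.17% of all genes were called. *Cldn2*, a tight junction protein of the proximal tubule that passes cations, measured 493 ± 89.9 CPM in aged and 631 ± 41.9 CPM in young mice (log2 fold change -0.36, SE 0.14, edgeR adjusted p = 0.1503).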

How the data were processed

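Renal cortex RNA of 4 aged and 4 young mice was depleted of ribosomal RNA and sequenced as stranded paired-end libraries. TopHat2 was used by the authors for alignment to mm9 and HTSeq-count, set to the reverse strand, for assigning pairs to RefSeq genes. They deposited the raw counts per gene and library. Per the labels, CASAVA 1.8.2 and SAMtools were also used. The 5 closing lines of each table, which name no gene, were left out, among them pairs on no gene, which made up 20.0% to 29.9% of each table. A further table that joins these libraries was left unused. The 10 genes do not overlap another gene on their own strand, and pairs aligned to several places were not assigned to genes.

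Counts were tested in R 4.3.3 with edgeR 4.0.16 (quasi-likelihood, TMM, filterByExpr with a minimum count of 10, no covariate) over all 8 libraries. The alternatives were DESeq2 1.42.0, limma-voom 3.58.1, other scalings and filters, the replicate number as a block, and each mouse left out. The scripts were tested on simulated data. Ratios used counts plus 0.5 on the log2 scale and exact permutation over 70 orders. Log2 CPM used a prior count of 2. The floor of 3 counts covers counting error only. GENCODE models on NCBIM37 (mm9) gave coordinates and lengths. The labels do not state that mice were littermates or handled in batches.

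The genes, the lists and the tests were chosen with earlier results of these data known. The text names the 10 genes, the called genes of each list with the smallest p, or the 2 genes with the smallest p where none was called, *Slc12a3*, *Pvalb*, *Slc5a2* and *Slc5a12* for context, and the 3 genes most correlated with *Kl* and with *Cyp27b1* among genes of mean CPM of at least 1. *Slc4a4*, *Slc22a6*, *Slc22a7*, *Atp11a*, *Slc7a13*, *Aqp2*, *Csf1r*, *Col1a1*, *Lcn2*, *Vcam1* and *Havcr1* were named after their values were seen.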

Additional observations from a re-analysis of the deposited data

Results flagged for a closer look

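Within each group of 4, the highest and lowest mouse was compared with the others by Dixon's gap ratio on the log2 scale, for the 10 genes and 4 ratios. Of 28 groups tested, 3 passed Dixon's 95% critical value, where chance gives about 1 in 20, or 1.4. In all 3 the mouse was aged mouse 1, the lowest of its group. For *Slc34a1* it had 2481 CPM against 5498 to 6427 CPM in the other aged mice (gap ratio 0.836). For *Calb1* it had 161 CPM against 344 to 372 CPM (gap ratio 0.905). For *Calb1* per 100 *Slc12a3* counts it had 13.9 against 25.9 to 29.0 (gap ratio 0.845). The 3 share 1 library and, for the last pair, the same gene, and the cause was not tested.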

How the results depend on the processing

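Over the 10 genes, 160 values under 16 alternatives were compared with the reported ones, and 144 kept direction and side of the threshold. In 5 the direction turned, in genes that were not called: *Cyp24a1* was at -0.31 by limma-voom and -0.55 without aged mouse 1, *Slc34a3* at 0.047 without aged mouse 1, and *Slc20a2* at 0.020 with library size only and 0.028 without aged mouse 3. With each mouse left out, *Cyp24a1* ran from -0.55 to 0.72, *Slc34a3* from -0.47 to 0.047 and *Slc20a2* from -0.25 to 0.028. Library size only moved the median of all genes by 0.11 (log2). *Cyp27b1* kept its direction throughout and lost its call in 6, and *Trpv5* and *Calb1* gained one in 3 and 2. The genes called among the 10 numbered 3 by DESeq2, 3 by limma-voom, 0 with the replicate block and 0 to 2 with each mouse left out. Of the listed partners, 2 were called with upper-quartile scaling, 2 with library size only, 4 by DESeq2, 4 by limma-voom, 2 with no fold change limit, 0 with the replicate block and 0 to 5 with each mouse left out. The 4 of DESeq2 and of limma-voom were *Gc*, *Klk1*, *Stc2* and *Pth1r*, the last named after its values were seen. Of all genes, 287 (2.06%) were called in the main fit. They numbered 297 with upper-quartile scaling, 488 with library size only, 873 (6.26%) by DESeq2 and 483 (3.46%) by limma-voom. With no fold change limit they were 411, with the block 130, and with each mouse left out 8 to 733. *Slc34a3* per *Slc34a1* ran from -0.14 to 0.25 (log2) with each mouse left out, turning sign 4 times. The other ratios kept their direction, and with the block the ratio test allows no p under 0.125. DESeq2 gave *Cyp24a1* no p. Between mice of the same replicate number, the correlations of deviations were 0.21, 0.04, 0.20 and -0.03. Of 4 aged mice, 3 correlated best with the young mouse of their own number. The labels state no pairing, and these values cannot settle whether the numbers pair the mice. Under the block *Cyp27b1* was at 1.18 (edgeR adjusted p = 0.0824) and *Gc* at 2.83 (0.0645), and both calls were lost. Depth limits *Cyp27b1* most, with 91 read pairs in its lowest library.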
